A study of Mus musculus with 70 samples.

Results

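Transmitter release depends on a small set of protein families. A VAMP on the synaptic vesicle and a syntaxin and a SNAP-25 protein on the target membrane wind into the SNARE complex, which pulls both membranes together. Syntaxin binding proteins of the Munc18 type hold syntaxin ready for this assembly, complexins clamp and prime the assembled complex, synaptotagmins sense calcium and trigger fusion, and synapsins tether vesicles in reserve behind the active zone. Other members of the same families drive fusion on endosomes, the Golgi, lysosomes and autophagosomes, so the family names reach beyond the synapse. In the hippocampus most excitatory terminals use Syt1, Vamp2, Snap25 and Stx1a, whereas Syt2 and Vamp1 are known from fast inhibitory interneurons.

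The genes described here were all genes of the deposited hippocampal expression table whose symbols name a synaptotagmin, a synapsin, a syntaxin, a syntaxin binding protein, a numbered VAMP, a complexin, or Snap23, Snap25 or Snap29. This gave 50 of 14260 genes: 15 synaptotagmins, 13 syntaxins, 7 syntaxin binding proteins, 6 VAMPs, and 3 each of the complexins, the SNAP-25 family and the synapsins. The rule used symbols only and no measured value, though it was set with earlier results of these data known. All 50 were measured in every library.

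RNA from the hippocampus of 1 hemisphere per mouse was sequenced in 69 mice (70 libraries). TG mice were APP23 animals, B6.Cg-Tg(Thy1-APP)3Somm/J, in which the Thy1 promoter drives human APP in neurons, and NTG mice were their littermates without the transgene. Mice of each genotype ate ad libitum (ALF) or were on time-restricted feeding (TRF), with food for 6 h a day from Zeitgeber time (ZT) 15 to ZT21; mice were 6 to 9 months old when feeding was assigned and 10 to 13 months old when killed. All groups lived singly housed in 12 h of light and 12 h of dark, with lights on at ZT0 and off at ZT12. There were 16 NTG ALF, 16 NTG TRF, 19 TG ALF and 18 TG TRF mice, killed at ZT0 (25), ZT6 (11), ZT12 (23) or ZT18 (10), and the sex of each sample is not given in the labels used here.

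The expression of Thy1, which reads the transgene promoter, did not overlap between the genotypes (14727 to 29068 normalized counts in 32 NTG and 101990 to 171320 in 37 TG). The hippocampal neuron genes Prox1, Zbtb20 and Wfs1 had medians of 1376, 244 and 5011 normalized counts. The 14 choroid plexus markers summed to between 7192 and 333350 over the animals, so the amount of this neighbouring tissue differed widely between dissections. Libraries held 27.9 to 47.1 M estimated reads. Library NTG_ALF_325, taken at ZT18, stood apart: its Vamp1 was 15934 normalized counts against at most 6701 in any other animal, its Syt2 was 2445 against at most 1576, and its Syt1 of 44115 was the lowest of all. In the same library Pvalb was 3890 against at most 1880 elsewhere, Nefh 8441 against at most 4564, and the myelin gene Mbp 217141 against at most 148345. Its Slc17a7 (31621) was the lowest of all, but hardly below the next animal (31648.5). A further 5 libraries had the lowest correlation with the others, namely NTG_ALF_1, NTG_ALF_107, TG_ALF_5 and TG_ALF_16 at ZT0, and TG_TRF_104 at ZT12. All 21 animals of ZT6 and ZT18 carried numbers from 300 up, against 3 of 48 at ZT0 and ZT12, so a test over all 4 times cannot tell time from this numbering, whose meaning the labels do not give.

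Between them the 50 genes held 1.19% ± 0.05 of each library's total (SD, n = 69). Compared per kb of exon, the scale on which levels of different genes can be set side by side, the release machinery itself stood at the top. Cplx2, a complexin of excitatory terminals, came first with a level of 11306 normalized counts per kb. Among those that came after it were the target membrane SNARE Snap25 (10093), Cplx1 (7726), the calcium sensor Syt1 (7618), the vesicle SNARE Vamp2 (7296), the non-calcium-binding Syt11 (6672), and the synapsins Syn1 (3995) and Syn2 (3057). The means of the neighbours Cplx1, Syt1 and Vamp2 differed by less than the spread between animals. Their order also depends on the exon length used, that of all annotated exons of a gene merged. Stx1a (1387 per kb) was far below its partner Snap25. The lowest were Syt14 (23.7), Vamp5 (26.7), known from muscle and endothelium, and Syt6 (61.7).

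**Figure D1:**
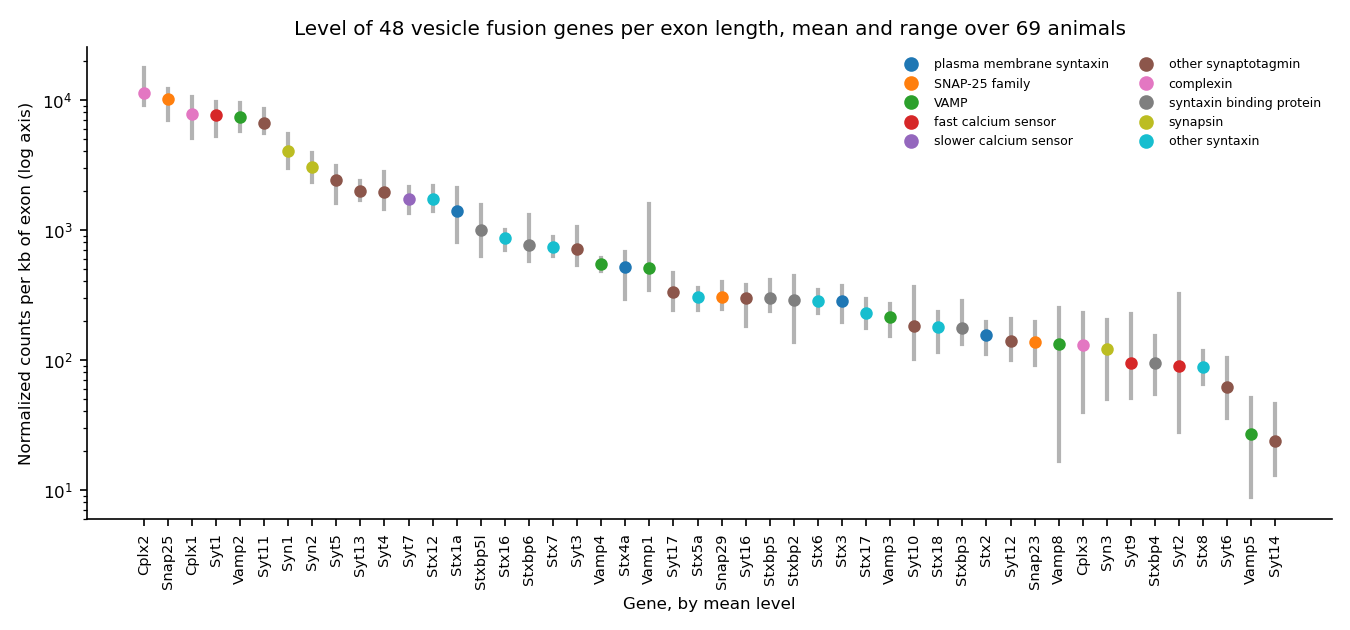
Mean level of 48 of the 50 genes in normalized counts per kb of exon, on a log axis, with grey bars from the lowest to the highest of 69 animals and colours for the role of the protein. Cplx2, Snap25, Cplx1, Syt1 and Vamp2 lead, and the bars of Vamp8 and Syt2 are among the longest; the upper end of the Vamp1 bar is NTG_ALF_325 alone.

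In normalized counts, the scale used for all values that follow, the mean over 69 animals was 68540 ± 6174 for Snap25, 63518 ± 6702 for Syt1, 55717 ± 9337 for Cplx2 and 27790 ± 2457 for Vamp2 (SD). The highest animal exceeded the lowest 1.72-fold for Snap25, 1.80-fold for Syt1, 1.92-fold for Cplx2, 1.66-fold for Vamp2 and 2.09-fold for Cplx1. The residual SD of Cplx2 was 0.23 on the log2 scale, beside a median of 0.16 for genes of like level. After removal of group and time, the spread between animals was smallest for Vamp4, a SNARE of the trans-Golgi network (residual SD 0.08 on the log2 scale), and for the endosomal syntaxin Stx7 (also 0.08). It was widest for Vamp8, a SNARE of late endosomes and secretory cells (0.68), Syt2 (0.47), Vamp5 (0.47), Syt9 (0.42) and Cplx3 (0.39). Vamp8 ran from 38.6 to 577 normalized counts.

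The first question was whether these genes followed the time of day. In an F test over the 4 times of sacrifice, 16 of the 50 passed (adjusted p under 0.05, limma on log2 values with Benjamini-Hochberg adjustment over all genes), where 35.6% of all 14260 genes passed. The contrast of ZT12 with ZT0, lights-off against lights-on, had the most animals. In that contrast 13 of the 50 passed, 8 higher and 5 lower at ZT12, beside 27.9% of all genes (14.4% higher and 13.6% lower). The share of fusion genes with a call was thus close to that of the transcriptome at large, and their median log2 difference was -0.003 beside 0.003 for all genes. In bulk tissue, fewer cells of a type and less RNA per cell cannot be told apart. With each library centred on its median the split was 6 higher and 6 lower, and with quantile normalization 8 and 3. The shares of all genes under those settings are not given here. Within the syntaxins, the synaptotagmins and the syntaxin binding proteins some members passed and others did not. The 3 synapsins had values of -0.16 to -0.03 and none passed. Differences between members of a family were not tested.

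**Figure D2:**
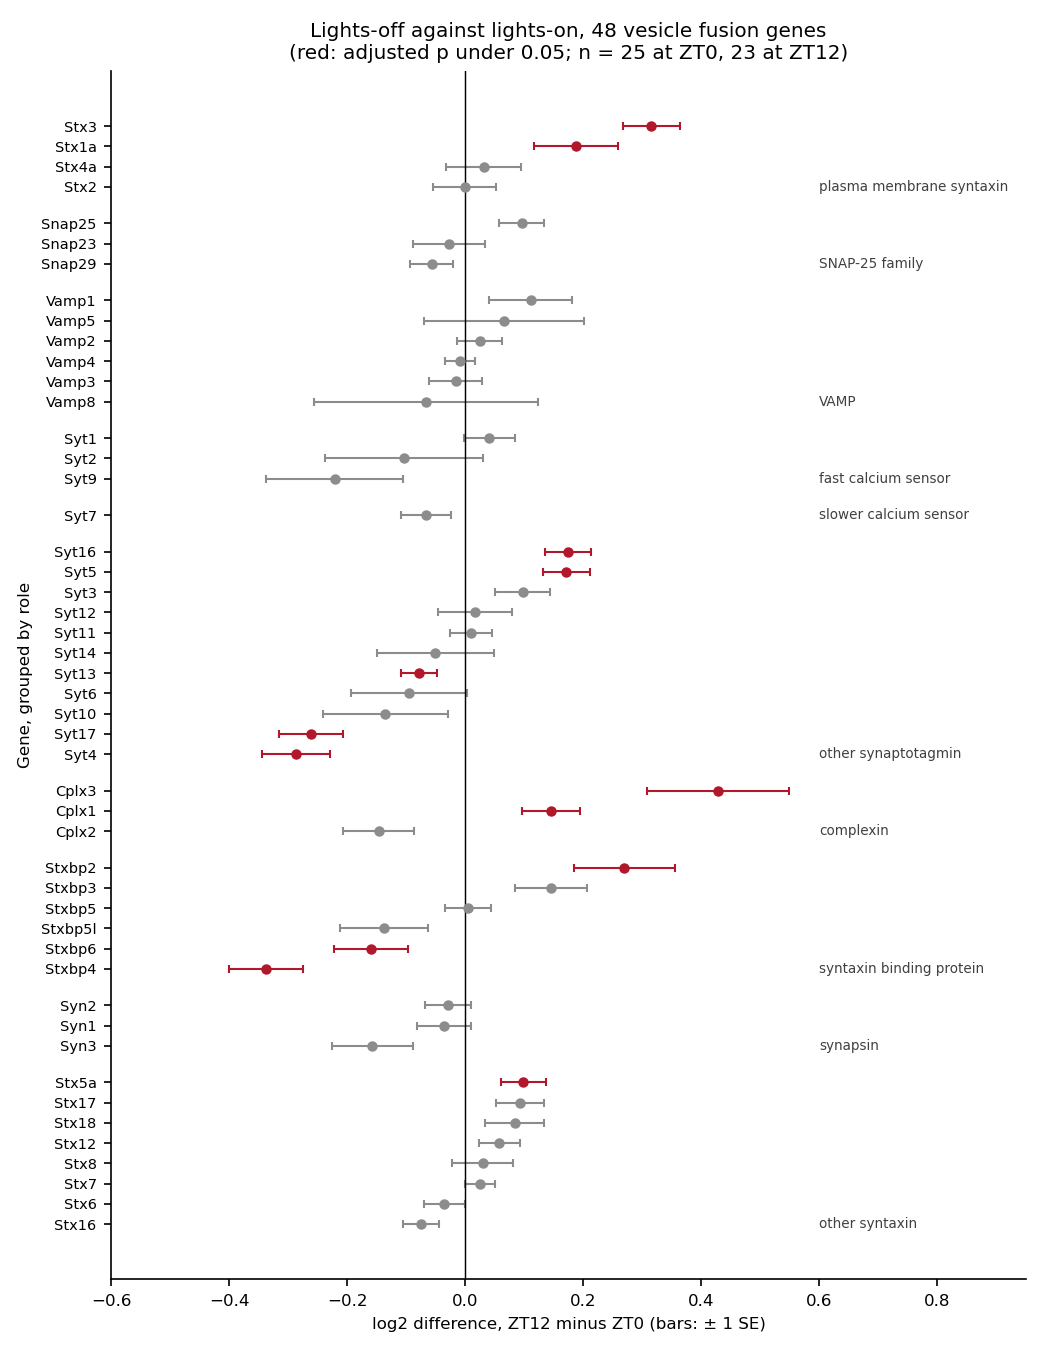
Log2 difference of ZT12 minus ZT0 for 48 of the 50 genes with bars of 1 SE, grouped by role, from 25 animals at ZT0 and 23 at ZT12; red marks an adjusted p under 0.05 (limma). Of the 13 red genes 8 lie to the right of 0 and 5 to the left, and both directions occur among the synaptotagmins and the syntaxin binding proteins.

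Among the SNAREs of the plasma membrane, Stx3 showed the clearest difference. Syntaxin 3 serves ribbon synapses and dendritic exocytosis, and its gene lies at chr19:11775118-11819403 on the minus strand (GRCm38). At ZT0 its level ran from 1117 through a median of 1410 to 1968 normalized counts, and at ZT12 from 1526 through 1762 to 2091. All 23 animals at ZT12 lay above the ZT0 median, while the ranges overlapped. The median was 1646 at ZT6 and 1603 at ZT18. The fitted difference was 0.32 ± 0.05 on the log2 scale (SE), a rise of 24.4%, with an adjusted p of 7.0e-07 (limma). The neuronal Stx1a had medians of 3727 and 4099, and its fitted difference was a rise of 13.9% (0.19 ± 0.07, adjusted p = 0.042, limma). Neither Stx2 nor Stx4a passed, and of the SNAP-25 family and the 6 VAMPs none did. Snap25 itself came near the threshold, at 0.10 ± 0.04 with an adjusted p of 0.054 (limma). In the 4 libraries of low correlation at ZT0 Snap25 ran from 47607 to 68546 normalized counts, against 62899 to 75377 in the 21 others. Their part in the Snap25 difference is not given here. Vamp2 had 0.02 ± 0.04.

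The calcium sensors of release gave no call. Syt1 differed by 0.04 ± 0.04 between ZT12 and ZT0, and within 2 SE of this value lie changes from -0.05 to 0.13 on the log2 scale. Of the 11 other synaptotagmins, with roles outside fast release, 5 did pass. Syt4, a synaptotagmin of dense-core vesicles that binds calcium weakly, ran from 6530 through a median of 8381 to 10762 normalized counts at ZT0 and from 5572 through 6821 to 8496 at ZT12. It was below the ZT0 median in 22 of 23 animals at ZT12, and the fitted difference was a fall (-0.29 ± 0.06, adjusted p = 0.00011, limma). An antisense gene, Gm26658, overlaps 14.5% of its exon length, and since the strand setting of the counting is not given in the sources used here, reads of the pair cannot be told apart. Syt17, which lacks a transmembrane segment, ran from 1581 through 1902 to 2403 at ZT0 and from 1312 through 1551 to 2091 at ZT12. Of the 23 animals at ZT12, 13 lay below every ZT0 animal (-0.26 ± 0.05, adjusted p = 0.00019, limma).

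Syt16 and Syt5 changed in the other direction. Syt16, an atypical synaptotagmin without calcium binding, ran from 2239 through 2583 to 3015 normalized counts at ZT0 and from 2495 through 2870 to 3361 at ZT12, above the ZT0 median in 21 of 23 animals (0.17 ± 0.04, adjusted p = 0.0005, limma). Syt5, a calcium sensor of dense-core vesicles, ran from 3817 through 5640 to 6389 at ZT0 and from 5468 through 6159 to 7416 at ZT12, above the ZT0 median in 20 of 23 animals (0.17 ± 0.04, adjusted p = 0.00075, limma). The fifth, Syt13, fell by 5.3% (-0.08 ± 0.03, adjusted p = 0.049, limma). Ranges at both times overlapped for each of these synaptotagmins.

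**Figure D3:**
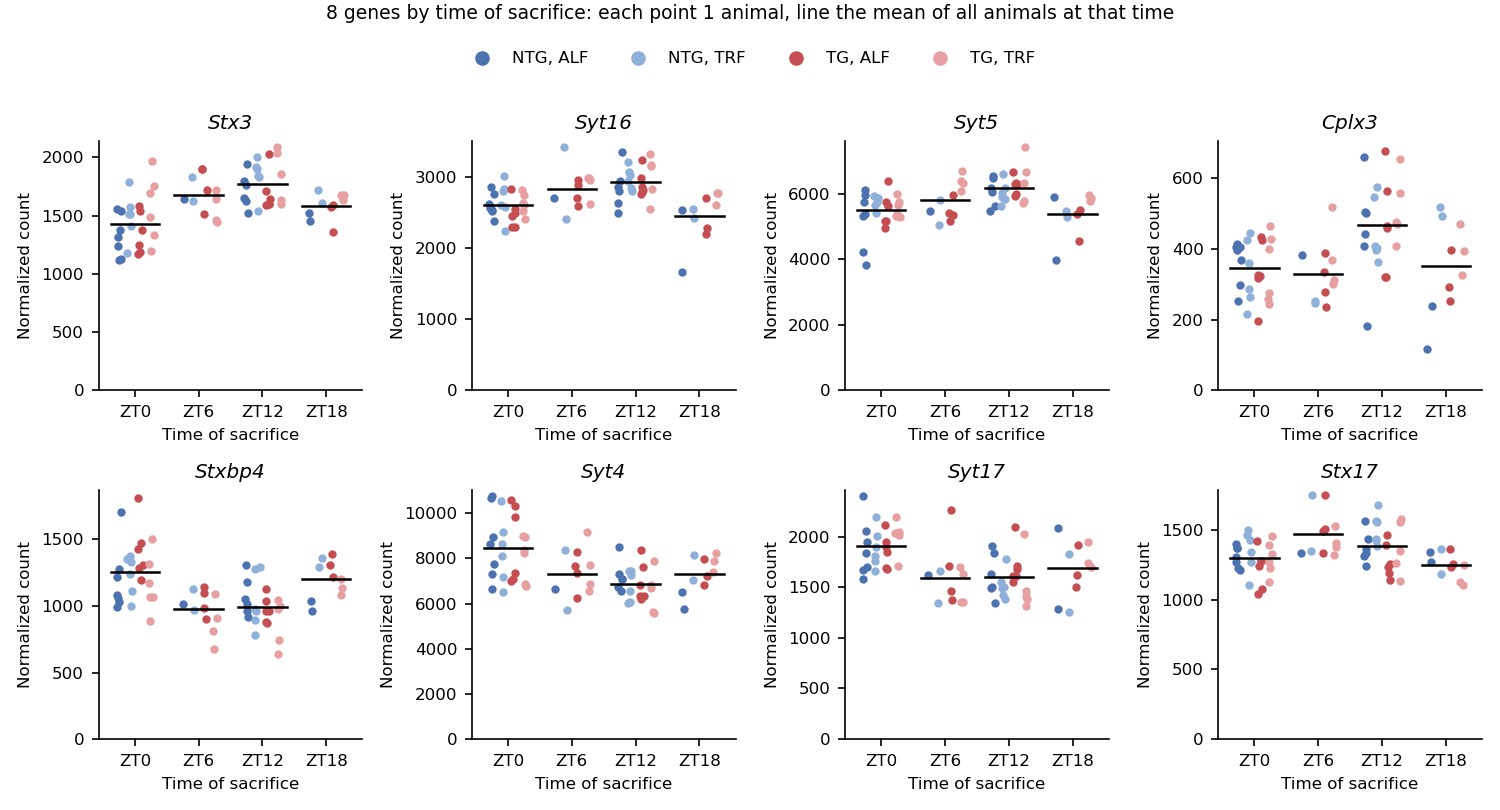
Normalized counts of 8 genes by time of sacrifice, with 1 point per animal coloured by genotype and feeding and a line at the mean of all animals of that time; each axis starts at 0. Stx3, Syt16, Syt5 and Cplx3 sit higher at ZT12 than at ZT0, Stxbp4, Syt4 and Syt17 lower, and Stx17 is lower at ZT18 than at ZT6; the lowest Syt16 and Cplx3 points at ZT18 are NTG_ALF_325.

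The 3 complexins did not move together. Cplx3, best known from ribbon synapses of the retina and low in hippocampus (chr9:57599992-57606281, minus strand), ran from 197 through a median of 361 to 464 normalized counts at ZT0 and from 181 through 465 to 677 at ZT12. It lay above the ZT0 median in 20 of 23 animals at ZT12 and above every ZT0 animal in 12 of them, a rise of 34.6% (0.43 ± 0.12, adjusted p = 0.0053, limma). Cplx1 had a median of 16611 at ZT0 and 17547 at ZT12 (0.15 ± 0.05, adjusted p = 0.021, limma). Cplx2 went from a median of 57148 to 52236 and did not pass (-0.15 ± 0.06, adjusted p = 0.059, limma). The values of Cplx1 and Cplx2 moved with the libraries of low correlation. In those 4 at ZT0, Cplx1 ran from 11085 to 12865 normalized counts, below all 21 other ZT0 animals (13747 to 20466), and Cplx2 ran from 71774 to 85716 against 47535 to 78975, with a median of 56799, in the others. Without the 5 libraries the difference was 0.05 for Cplx1 (adjusted p = 0.404, limma), 0.08 for Stx1a (0.441), 0.17 for Stxbp2 (0.158), -0.11 for Stxbp6 (0.267), 0.05 for Stx5a (0.41) and -0.08 for Syt13 (0.090), so none of these 6 calls held.

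Syntaxin binding proteins held the largest fall. Stxbp4, known as Synip and as a partner of syntaxin 4 in insulin-regulated traffic (chr11:90476492-90638084, minus strand), ran from 885 through a median of 1242 to 1813 normalized counts at ZT0 and from 640 through 976 to 1306 at ZT12. It was below the ZT0 median in 20 of 23 animals at ZT12, a fall of 20.9% (-0.34 ± 0.06, adjusted p = 3.9e-05, limma). Stxbp6, called amisyn, which competes for syntaxin and SNAP-25, fell by 10.4% (-0.16 ± 0.06, adjusted p = 0.048, limma). Stxbp2, the Munc18 of secretory and immune cells, rose by 20.5% (0.27 ± 0.09, adjusted p = 0.015, limma). None of the synapsins passed. Of the 8 syntaxins of internal membranes only Stx5a, of the route between endoplasmic reticulum and Golgi, passed (0.10 ± 0.04, adjusted p = 0.048, limma).

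Stx3, Stxbp4, Syt4, Syt17, Syt16, Syt5 and Cplx3 passed under all 15 alternative settings and with each of the 69 animals left out. They remained called without the 5 libraries of low correlation, when 8 of the 50 passed in all. The share of all genes without those libraries is not given here. The other 6 calls were less stable: with 1 animal left out at a time, Cplx1 and Stxbp2 kept theirs each time, Stx1a in 47 of 69 runs, Stxbp6 in 42, Stx5a in 35 and Syt13 in 29.

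Markers of other cell types also differed between ZT12 and ZT0, where 27.9% of all genes passed (14.4% higher and 13.6% lower). Of 10 endothelial markers 2 were higher and 7 lower, with a summed level of 5464 to 12098 normalized counts at ZT0 and 4794 to 10070 at ZT12. Of 8 markers of oligodendrocyte precursors none was higher and 6 were lower (12929 to 16679 and 9816 to 14264). Of 8 neuron markers 2 were higher and 2 lower (103120 to 133680 and 104910 to 128100). None of these markers was at 0 in any animal. With the neuron level as a covariate 14 of the 50 passed, with 11 of the 13 among them. The share of all genes under that covariate is not given here, and the part of the endothelial and precursor markers was not tested.

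Promoter sequence was examined because several of these genes moved with time. RefSeq promoter windows (GRCm38.p6, 250 bases before to 50 after the start) were matched to 38 of the 50 genes, 48 windows in all. The E-box CACGTG, a palindrome bound by clock and other factors, was found in 14.6% of these windows and in 7.15% of all 32851. The cAMP response element TGACGTCA stood in 4.17% and 1.79%, and the D-box TTATGTAA, searched on both strands, in none and 0.938%. These letters do not overlap each other. The windows of fusion genes were also richer in GC (median 63.7% beside 52.7%) and had a higher ratio of observed to expected CpG (0.72 beside 0.38), so their base composition differs from that of promoters at large. Of the 9 genes called at ZT12 that had a window, 2 held the E-box, as did 4 of the 29 others. The stretches of 3 genes are shown, chosen after their values were seen: Cplx3 had the largest rise and holds 2 E-boxes, and Syn1 and Stxbp3 hold the cAMP response element. All are on the minus strand, read 5′ to 3′ upstream of the start, with the motif in capitals; a match is a description of letters, not evidence of binding.
Cplx3 (chr9:57606306-57606391): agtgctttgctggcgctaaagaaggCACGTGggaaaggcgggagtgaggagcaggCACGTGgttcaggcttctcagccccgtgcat
Syn1 (chrX:20921045-20921102): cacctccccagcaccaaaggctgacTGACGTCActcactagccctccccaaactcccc
Stxbp3 (chr3:108840578-108840635): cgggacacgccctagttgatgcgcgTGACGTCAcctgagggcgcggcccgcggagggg
The 2 E-boxes of Cplx3 begin 85 and 55 bases before the start. The element of Syn1 begins 159 bases before the start, and that of Stxbp3 108 bases before it. Syn1 did not pass at ZT12 (-0.04 ± 0.05), nor did Stxbp3 (0.15 ± 0.06), so neither gene with the element had a call in this contrast.

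Within single groups the same contrast has 5 to 7 animals per time, and few genes passed. In NTG ALF 1 of the 50 passed, Stx3 (0.38 ± 0.09, adjusted p = 0.015, limma), beside 2.17% of all genes. In NTG TRF none passed, beside 0.596%; 6 had an unadjusted p under 0.05 (1224 of all genes), the first being Stx3 (0.30 ± 0.10, adjusted p = 0.198, limma). In TG ALF Stxbp4 passed alone (-0.53 ± 0.13, adjusted p = 0.014, limma), beside 2.22%. In TG TRF Syt17 passed alone (-0.41 ± 0.12, adjusted p = 0.032, limma), beside 3.55%. The call of Stx3 in NTG ALF was lost without NTG_ALF_1 or without the 5 libraries, that of Stxbp4 in TG ALF without TG_ALF_16 or the 5 libraries, and that of Syt17 in TG TRF in 8 of 69 runs with 1 animal left out (adjusted p up to 0.084, limma, without TG_TRF_321) and with the number series as a covariate. Next in p were Syt5, Syt4, Stx5a and Syt17 in NTG ALF, Syt17, Syt4, Stxbp4 and Cplx3 in NTG TRF, Stx3, Syt16, Syt4 and Stxbp6 in TG ALF, and Stxbp4, Cplx3, Syt4 and Stxbp6 in TG TRF, with adjusted p of 0.050 to 0.554 (limma). Stx5a differed by 0.16 ± 0.08 in NTG ALF, and Stxbp6 by -0.30 ± 0.12 in TG ALF and -0.31 ± 0.13 in TG TRF.

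Set side by side, the values of the 7 most stable genes have 1 sign in all 4 groups, which is largely fixed by their choice on the pooled contrast of the same animals. Stx3 differed between ZT12 and ZT0 by 0.38, 0.30, 0.33 and 0.24 in NTG ALF, NTG TRF, TG ALF and TG TRF on the log2 scale (SE 0.09 to 0.10). Syt4 gave -0.25, -0.29, -0.31 and -0.30, Syt17 -0.22, -0.31, -0.13 and -0.41, Syt16 0.12, 0.16, 0.23 and 0.19, Syt5 0.23, 0.07, 0.19 and 0.19, and Cplx3 0.23, 0.45, 0.46 and 0.60. Stxbp4 varied most among groups, with -0.14, -0.28, -0.53 and -0.41. In counts, Stxbp4 in TG ALF ran from 1193 to 1813 at ZT0 and from 869 to 1129 at ZT12, without overlap, and in NTG ALF from 994 to 1710 and from 917 to 1306. The difference itself was tested in the model of 16 group and time means. Neither feeding nor genotype altered the change from ZT0 to ZT12 for any of the 50 genes at the threshold, and 0% of all genes passed either test (limma). At an unadjusted p under 0.05 there were 0 of 50 for feeding (489 of all genes) and 3 for genotype (694 of all genes): Stxbp6 (-0.28 ± 0.12), Syt6 (0.44 ± 0.20) and Stxbp4 (-0.26 ± 0.13), with the TG value minus the NTG value and an adjusted p of 0.989 each (limma). Next in p for genotype were Stx7 (0.09 ± 0.05) and Stx6 (0.13 ± 0.07), and for feeding the smallest p belonged to Stx5a (-0.16 ± 0.08), Syt17 (-0.19 ± 0.11), Vamp4 (-0.08 ± 0.05), Stx2 (-0.15 ± 0.11) and Syt12 (0.17 ± 0.12). Reads of Syt12 are uncertain, since A930001C03Rik on the opposite strand overlaps 17.2% of its exon length.

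The remaining contrast over time, ZT18 against ZT6 (mid-dark against mid-light, 10 and 11 animals), stays within 1 number series. Here 4 of the 50 passed, 1 higher and 3 lower at ZT18, beside 8.04% of all genes (4.27% higher and 3.77% lower). With each library centred on its median, 0 were higher and 3 lower. For this contrast, shares of all genes outside the main fit are not given here. Stx17, the syntaxin of autophagosomes, ran from 1321 through a median of 1409 to 1753 normalized counts at ZT6 and from 1106 through 1257 to 1367 at ZT18. All 10 animals at ZT18 were below the ZT6 median and 7 were below every ZT6 animal (-0.24 ± 0.06, adjusted p = 0.008, limma). Stxbp3, the Munc18 of syntaxin 4, had medians of 1035 and 875 (-0.29 ± 0.09, adjusted p = 0.038, limma); with the neuron level as a covariate it was -0.17 (adjusted p = 0.242). Stxbp4 had medians of 987 and 1212, with 9 of 10 animals above the ZT6 median (0.30 ± 0.10, adjusted p = 0.036, limma). Syt16 had medians of 2898 and 2548 (-0.21 ± 0.06, adjusted p = 0.013, limma), and without NTG_ALF_325 the difference was -0.16 (adjusted p = 0.052). Stx18, of the endoplasmic reticulum, came next (0.21 ± 0.08, adjusted p = 0.070, limma). Gm42858 on the opposite strand overlaps 19.8% of the exon length of Stx18, so its reads are uncertain. Of the core of fast release, 7 genes (Syt1, Snap25, Vamp2, Stx1a, Cplx1, Cplx2 and Syn1) differed by -0.08 to 0.07. Without the 5 libraries of low correlation 7 passed, and without TG_ALF_304 or without TG_TRF_305 only 2, Stxbp3 and Stxbp4 being lost. Each of this pair was called in 59 of 69 runs with 1 animal left out, with an adjusted p of up to 0.115 for Stxbp3 (limma, without NTG_TRF_312) and 0.085 for Stxbp4 (without TG_TRF_307).

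Over the 4 times together, Stxbp4 was highest at ZT0 and ZT18 and lowest at ZT6 and ZT12, with medians of 1242, 987, 976 and 1212 in order of time. Syt16 had its higher medians at ZT6 and ZT12, with 2583, 2898, 2870 and 2548 in the same order. Snap23, the SNAP-25 relative of cells at large, passed only in the F test (adjusted p = 0.0027, limma), with medians of 577, 622, 566 and 706. Also called by the F test and in neither contrast were Syn3 (adjusted p = 0.0073), Snap29 (0.022), Cplx2 (0.037) and Vamp1 (0.047, limma). Of the 16 genes of the F test, the highest mean fell at ZT0 in 5, at ZT6 in 3, at ZT12 in 4 and at ZT18 in 4. With the number series as a covariate the calls of Cplx2, Snap23 and Snap29 were lost, and without NTG_ALF_325 those of Vamp1 (adjusted p = 0.074, limma) and Cplx2 (0.051) were lost. With 1 animal left out at a time the F test called Vamp1 in 33 of 69 runs, Stxbp6 in 41 and Cplx2 in 60, and Cplx2 passed in 8 of 14 alternative settings.

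Other genes of the presynaptic terminal behaved similarly in number. The share of all genes to set beside each list was 27.9% at ZT12 against ZT0 and 8.04% at ZT18 against ZT6. Of 47 genes of the vesicle and the active zone, 7 were higher and 6 lower at ZT12 than at ZT0. Among them Doc2b, a calcium sensor for spontaneous release, fell (-0.35 ± 0.05, adjusted p = 5.4e-08, limma) while its paralog Doc2a rose (0.31 ± 0.06, adjusted p = 0.00016, limma), and the vesicle glycoprotein Sv2c fell (-0.46 ± 0.10, adjusted p = 0.00037, limma). At ZT18 against ZT6 Doc2b was higher (0.35 ± 0.07, adjusted p = 0.00075, limma) and Snapin, which binds SNAP-25, lower (-0.23 ± 0.07, adjusted p = 0.026, limma), 2 of 47. Of 10 calcium channel genes 1 was higher at ZT12, Cacnb2 (0.10 ± 0.04), and 2 lower, Cacna1e (-0.21 ± 0.07) and Cacnb3 (-0.10 ± 0.04). None of the 5 measured vesicle transmitter transporters passed in either contrast. In the F test over 4 times, where 35.6% of all genes passed, Slc32a1 did (adjusted p = 0.048, limma). Of 24 genes of vesicle endocytosis 4 were higher and 3 lower, led by Hspa8, which uncoats clathrin vesicles (-0.30 ± 0.05), Itsn1 (-0.27 ± 0.05) and Synj2 (-0.27 ± 0.06), and Dnm2 was higher at ZT18 than at ZT6 (0.28 ± 0.06, adjusted p = 0.0013, limma).

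The second question was whether the transgene changed this machinery. Under ad libitum feeding none of the 50 genes passed, beside 0.189% of all genes, and 4 had an unadjusted p under 0.05 (1041 of all genes). Under restricted feeding none passed, beside 0.133%, with 5 at an unadjusted p under 0.05 (989 of all genes). A fit with voom weights also gave 0 in both. These 7 core genes, Syt1, Snap25, Vamp2, Stx1a, Cplx1, Cplx2 and Syn1, differed by -0.12 to 0.05 on ALF and by -0.08 to 0.15 on TRF, and 2 SE around these values reach from -0.24 to 0.22 and from -0.19 to 0.32. For Syt1 the mean was 64055 ± 7332 normalized counts in NTG ALF and 63136 ± 6103 in TG ALF (SD), which ranged from 44115 to 79519 and from 53944 to 75893. For Snap25 it was 68597 ± 7277 and 66333 ± 6398. For both genes the range of the TG animals lay inside that of the NTG animals, whose low end was a single library. For Syt1 it was NTG_ALF_325. For Snap25 it was NTG_ALF_1 (47607, next 66902 at ZT0). Without NTG_ALF_1 the Snap25 range of TG ALF, which began at 52350, would reach lower than that of NTG ALF.

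**Figure D4:**
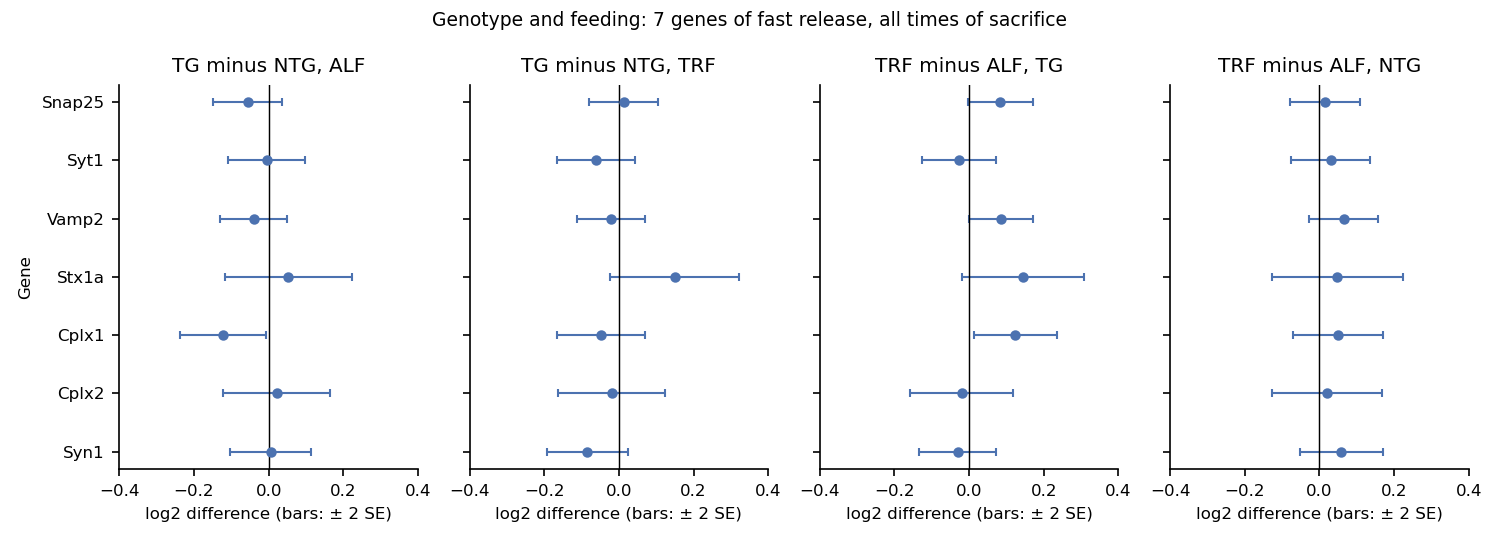
Log2 difference with bars of 2 SE for 7 core genes of fast release in 4 contrasts: TG minus NTG on ALF and on TRF, and TRF minus ALF in TG and in NTG. No contrast passed the adjusted threshold for any of the 7 genes (limma), and the widest bars, those of Stx1a, reach 0.32.

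Vamp1 had the smallest p on ALF. It ran from 3964 through a median of 5335 to 15934 normalized counts in NTG ALF and from 3611 through 4823 to 5472 in TG ALF, with 17 of 19 TG animals below the NTG median. The fitted difference was -0.30 ± 0.08 (adjusted p = 0.161, limma). Without NTG_ALF_325 it was -0.19 (adjusted p = 0.314), whereas with array weights or the myelin level as a covariate (-0.30, adjusted p = 0.038) Vamp1 passed. Syt2 had medians of 707 and 552 (-0.36 ± 0.16, adjusted p = 0.613, limma; -0.23 without NTG_ALF_325). On TRF the median of Syt2 was 763 in NTG and 561 in TG, and all 18 TG animals lay below the NTG median (-0.46 ± 0.16, adjusted p = 0.465, limma). This order of the groups in Syt2 was the same under both feedings and missed the threshold under both. The 10 interneuron markers summed to 37694 to 49151 normalized counts in NTG ALF and 39185 to 48516 in TG ALF, with a median log2 difference of -0.04. Their means over all animals differ, with 12942 for Gad1 and 1151 for Pvalb, so the sum says little of Pvalb. The genotype difference of Pvalb alone is not given here. The part of these markers in the values of Vamp1 and Syt2 was not tested. Cplx1 (-0.12 ± 0.06) and the slower calcium sensor Syt7 (-0.10 ± 0.05) were next on ALF.

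Vamp8 had medians of 270 in NTG ALF and 370 in TG ALF, with 14 of 19 TG animals above the NTG median (0.43 ± 0.22, adjusted p = 0.728, limma). In the same contrast all 14 choroid plexus markers had positive values, with a median of 1.71. Their summed level ran from 7288 to 255430 in NTG ALF and from 8586 to 272060 in TG ALF, so the ranges largely overlapped. Aqp1 and Slc4a5 were each at 0 in 2 of the 69 animals and the other 12 markers in none. With the choroid plexus level as a covariate Vamp8 differed by 0.05, and the part of this tissue in the Vamp8 values was not tested. On TRF the other genes of smallest p were Stx17 (-0.12 ± 0.05), Stxbp4 (-0.18 ± 0.08), Syn3 (-0.19 ± 0.08) and the recycling endosome SNARE Vamp3 (-0.11 ± 0.05), with adjusted p of 0.664 to 0.71 (limma). None of the genes of the 4 other presynaptic lists passed for genotype.

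**Figure D5:**
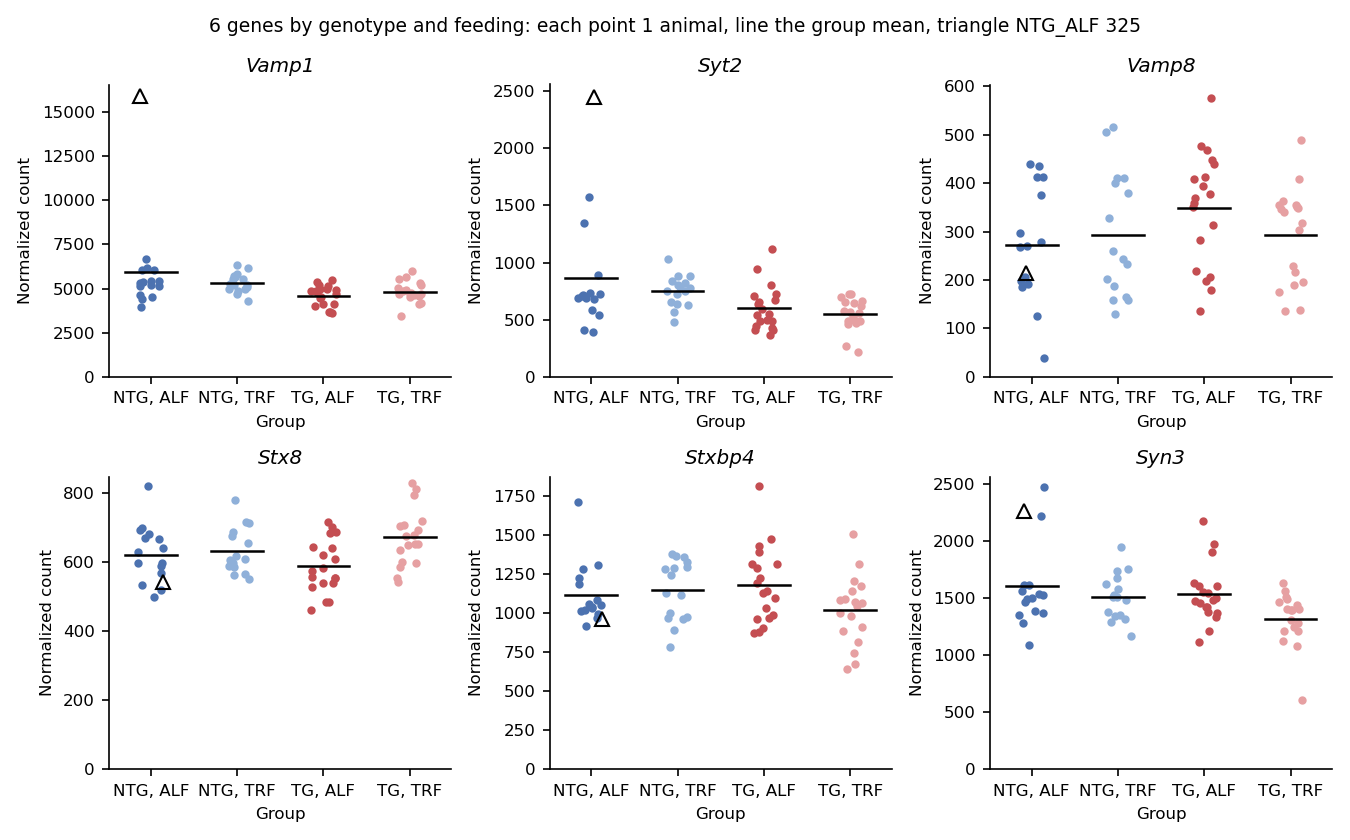
Normalized counts of 6 genes in the 4 groups over all times, with 1 point per animal and a line at the group mean; each axis starts at 0 and the open triangle is NTG_ALF_325. The triangle is the highest point of Vamp1 and Syt2, and TG animals on TRF tend to be low in Stxbp4 and Syn3 and high in Stx8, with overlap between all groups.

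The third question was whether restricted feeding changed these genes. In TG mice none of the 50 passed, beside 0.54% of all genes; 7 had an unadjusted p under 0.05 (2433 of all genes). The endosomal syntaxin Stx8 came nearest: it ran from 461 through a median of 574 to 714 normalized counts on ALF and from 542 through 663 to 828 on TRF, with 16 of 18 TRF animals above the ALF median (0.19 ± 0.06, adjusted p = 0.089, limma). Stxbp4 had medians of 1142 and 1055, with 14 of 18 TRF animals below the ALF median (-0.23 ± 0.07, adjusted p = 0.106, limma). Vamp3 had medians of 645 and 590 (-0.15 ± 0.05, adjusted p = 0.125, limma), Syn3 of 1488 and 1400 (-0.23 ± 0.08, adjusted p = 0.131, limma), and Syt13 of 7154 and 7757 (0.09 ± 0.04, adjusted p = 0.203, limma). Reads of Syn3 are uncertain, since Timp3 lies in it on the opposite strand and covers 14.1% of its exon length. In this contrast the choroid plexus markers had a median of -1.44 with 0 of 14 positive; their part in these values was not tested. The TG ALF animals enter both this contrast and the genotype contrast on ALF, so opposite values in the pair are not independent.

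In NTG mice none of the 50 passed, beside 0.0281% of all genes, with 1 at an unadjusted p under 0.05 (1065 of all genes). This was Stx3, with medians of 1531 on ALF and 1674 on TRF (0.14 ± 0.06, adjusted p = 0.551, limma), followed by Syt13 (0.07 ± 0.04), Syt16 (0.08 ± 0.05), Stx12 (0.07 ± 0.04) and Syt5 (0.07 ± 0.05). The 7 core genes differed by -0.03 to 0.14 in TG and by 0.01 to 0.07 in NTG. Whether feeding acted differently in the genotypes was tested as an interaction, which gave 0 of the 50 (limma) where 0% of all genes passed, and 1 at an unadjusted p under 0.05 (745 of all genes). That gene was Stxbp4 (-0.29 ± 0.11, adjusted p = 0.929, limma), followed by Stx8 (0.17 ± 0.09), Syn3 (-0.18 ± 0.11), Stxbp3 (-0.14 ± 0.10) and Vamp1 (0.15 ± 0.12). Voom weights gave 0 for feeding and for the interaction as well.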

How the data were processed

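Poly-A selected RNA of hippocampus was sequenced in paired reads of 150 bases, and Trimmomatic trimmed them, per the labels' protocols. Alignment and counting relied on HISAT2 and featureCounts with build GRCm38, and DESeq2 is listed too, per the submitters' processing notes; versions, annotation and the strand setting are not given in the sources used here. The deposited values are a normalized signal per gene, which the authors made by dividing read counts by 1 factor per library. In every library 100% of values were whole multiples of 1 step (within 0.01 of a step), from which reads were estimated; a voom fit on these multiples was an alternative. The lowest gene mean in the table is 40.9.

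A pseudocount of 1 was added before log2, and all differences are on that scale. Libraries 232 and 232R of NTG TRF were averaged as 1 animal. The tests are limma's moderated tests (limma 3.58.1, R 4.3.3, variance trend and robust variances, 2-sided), fitted on all 14260 genes and 69 animals with Benjamini-Hochberg adjustment and a threshold of 0.05. Genotype, feeding and time were fitted additively, as 4 groups plus time, and changes within groups from a model with 16 means. The script was tested on simulated data. Exon lengths and positions are from GENCODE M21.

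The members and the gene lists were chosen with earlier results of these data known. In each comparison the genes that passed are named, or the 5 of smallest p where fewer than 5 passed, with 7 core genes of fast release always (2 further genes of the 50 enter the fits and counts but are not reported here); of each pathway list the 3 of smallest p that passed are named. Alternatives were other pseudocounts, filters, scalings, weights, covariates, sets of libraries, and each animal left out.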

Additional observations from a re-analysis of the deposited data

Results flagged for a closer look

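Within groups of 4 to 10 animals, the gap between an extreme animal and its nearest neighbour was compared with Dixon's critical value for 140 groups, of which 16 exceeded it; chance gives about 1 in 20. Of these, 8 were library NTG_ALF_325 among the 10 animals at ZT18: it was lowest for Syt1 (44115, next 54260), Vamp2 (22809, next 26762), Syn2 (16794, next 20359) and Syt16 (1673, next 2199), and highest for Cplx1 (23134, next 18684), Vamp1 (15934, next 6187), Syn3 (2267, next 1636) and Syt2 (2445, next 839), all in normalized counts. At ZT18 Stx18 was low in TG_ALF_303 (730, next 856) and Syt9 high in TG_ALF_314 (546, next 392). Core genes of fast release within a group and time made up 90 of the 140 tests, and their flags came near the chance rate. Among them Snap25 was low at ZT0 in NTG_ALF_1 (47607, next 66902) and in TG_TRF_102 (63000, next 69664). NTG_TRF_118 at ZT0 was high for Vamp2 (36234, next 29032) and Syn1 (17888, next 13718). Syn1 was low in NTG_ALF_22 at ZT12 (11343, next 12886), and Syt1 was high in TG_ALF_109 at ZT12 (75122, next 64515).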

How the results depend on the processing

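Counts of the 50 genes that passed changed by more than 1.5 times as follows. The number of calls over all genes, which also changed with the setting, is not given beside each. TG against NTG on ALF gave 0, but 1 under array weights and likewise 1 once myelin was a covariate. ZT12 against ZT0 gave 13, and 8 without the 5 libraries of lowest correlation. In NTG ALF this contrast gave 1, and 0 with the neuron level as a covariate and 0 without the 5 libraries. In TG ALF it gave 1, and 2 with array weights, the filter at a mean of 200, the number series, or the choroid plexus, myelin or neuron level as a covariate, and 0 without the 5 libraries. In TG TRF it gave 1, and 2 with array weights, the choroid plexus or the neuron level, and 0 with the number series. ZT18 against ZT6 gave 4, and 7 with array weights, with the neuron level and without the 5 libraries. With each animal left out in turn, counts ran from 13 to 20 for the F test, 9 to 15 for ZT12 against ZT0, 0 to 2 in NTG ALF, TG ALF and TG TRF, and 2 to 5 for ZT18 against ZT6 (2 without TG_ALF_304 or without TG_TRF_305), and stayed at 0 for genotype, feeding, the interactions and NTG TRF. The interaction value of Stxbp3 turned from -0.14 to 0.027 with ZT0 and ZT12 animals alone; the cause was not tested, there or for the other changes. Of 1339 values of single genes under the alternatives, 1275 kept direction and side of the threshold, 51 lost and 12 gained a call and 1 reversed. No paired analysis was possible because animal numbers are not shared between the groups. Depth limits the lowest gene most: Vamp5 went down to 23.6 normalized counts, and its residual SD of 0.47 was near the 0.46 of genes of like level.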
